A study of Mus musculus with 8 samples.

Results

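Of 4159 places bound by SOX10 in both libraries of a mouse melanocyte line, 682 had the summit of SOX10 signal inside a region marked by H3K27ac, and these interior sites are described here. SOX10 consensus sites were made by joining peaks of both SOX10 libraries that shared at least 1 bp and keeping those with a peak from each library, and H3K27ac consensus regions were made in the same way. A site was an interior site when the summit of its peak with the most tags lay within an H3K27ac consensus region. The summit position and the extent of the H3K27ac regions therefore chose the sites and are given as descriptions. SOX10 tag number also decided which library gave the summit. SOX10 fold, the input background, the summit in the other SOX10 library and H3K27me3 were not used by this rule. Each SOX10 peak had first passed the authors' p cutoff, which rests on tags and input background. Fold and background thus entered in part through that cutoff, which a lower fold passes where the background is higher.

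The cells were melan-Ink4a-Arf-1, an immortalised line of melanocytes from embryonic mouse skin of the genotype Cdkn2a tm1RDp/tm1RDp, and all labels name this 1 line, with melan-a in brackets in the source name. What the bracketed name adds is not explained in the labels. They were grown with 200 nM of the phorbol ester TPA and 200 pM cholera toxin, and all libraries share these agents. ChIP-seq recovers DNA bound by an antibody's target from crosslinked chromatin and counts sequence tags along the genome. There were 2 libraries each for SOX10, H3K27ac and H3K27me3, from independent experiments per the labels' protocols, and 2 input libraries without antibody served as background. After duplicate removal SOX10 libraries held 6440395 and 8985699 tags, H3K27ac libraries 45583056 and 44416913, and H3K27me3 libraries 67060647 and 71987481. Positions are in the mm9 build. Genes were not assigned to the sites and no sequence at them was used here, so the cell type was not checked against its marker genes.

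SOX10 is an HMG-box transcription factor of the neural crest that bends DNA in its minor groove and is needed for the development and survival of melanocytes. H3K27ac is acetylation of lysine 27 on histone H3 and is found on the nucleosomes of active promoters and enhancers. A transcription factor bound at such an element often lies in a stretch cleared of nucleosomes, with acetylated nucleosomes on both sides. A summit inside an acetylated region is the other arrangement, in which the called mark runs across the bound position. H3K27me3, made by Polycomb repressive complex 2 on the same lysine, marks repressed chromatin and cannot sit on the same histone tail as the acetyl group.

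The interior sites made up 16.4% of SOX10 sites (95% Wilson interval 15.3 to 17.6%). For comparison, 865 sites had an uncovered summit with H3K27ac regions to the left and to the right, each less than 1 kb away, and are called flanked sites. A further 853 had one on a single side, and 1759 had none within 1 kb. The number of interior sites depended on how H3K27ac regions and SOX10 sites were drawn. With only the bases that peaks of both H3K27ac libraries covered it was 375, with H3K27ac regions less than 1 kb apart joined it was 1446, and with the authors' p of at least 100 on their scale, which also left fewer SOX10 sites, it was 112 of 1250. With the peaks of SOX10 replicate 2 alone as sites 1733 of 9613 summits lay inside (18.0%), and with those of replicate 1 alone 1022 of 6409 (15.9%). Intervals cover counting error only.

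Beyond the summit, H3K27ac consensus regions covered 69.4% of positions 500 bp to the left of the interior sites and 68.5% of those 500 bp to the right, and 51.6% and 54.8% at 1 kb. At flanked sites coverage of the same positions was 77.7% and 78.6% at 500 bp and 70.9% and 69.8% at 1 kb. Coverage at the summit is set by the rule for both classes, and coverage within 1 kb of flanked sites follows in part from how they were defined, so these values are a description. The H3K27ac peaks of replicate 1 covered 73.8% of interior summits and 61.3% and 61.6% of positions 500 bp to the left and right. Those of replicate 2 covered 81.2% of summits and 64.8% and 65.2% of the flanking positions. Since a summit needed a peak of at least 1 of these libraries, the higher share at the summit follows in part from the rule.

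**Figure D1:**
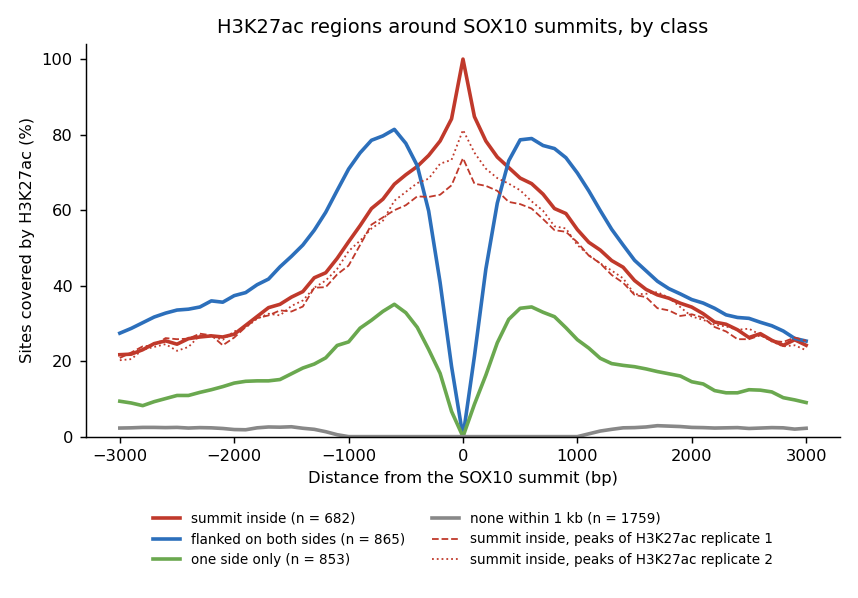
Share of SOX10 sites covered by an H3K27ac consensus region (vertical axis, percent) against distance from the SOX10 summit (horizontal axis, bp, steps of 100 bp), with 1 line for each class of site and, for the interior sites, thin lines for the peaks of each H3K27ac library. Values at 0 follow from the rule, and those of flanked sites within 1 kb follow in part from their definition; at 1 kb on either side 51.6% and 54.8% of the 682 interior sites were covered, against 70.9% and 69.8% of the 865 flanked sites.

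At many interior sites only 1 H3K27ac library placed a peak over the summit. Peaks of both libraries covered it at 375 sites (55.0%), a peak of replicate 2 alone at 179 (26.2%) and a peak of replicate 1 alone at 128 (18.8%). Where replicate 1 lacked a peak at the summit, it had peaks within 1 kb on both sides at 136 of 179 sites (76.0%) and on one side at the other 43. Where replicate 2 lacked one, it had peaks on both sides at 108 of 128 sites (84.4%) and on one side at the other 20. In the library that left the summit free, most of these sites thus had the flanked form. Each H3K27ac region needed peaks of both libraries, so a peak beside the summit follows in part from how regions were joined. The H3K27ac peaks were called with a tag distance of 50 and 51 bp, per the file headers, and what this does to gaps between peaks was not tested.

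Within their H3K27ac region the SOX10 summits lay towards the ends. When each region was divided into 10 equal parts, the first held 111 summits and the last 107, and the parts from the fourth to the seventh held between 49 and 54 each. The 4 outer parts together (the first and last pairs) held 368 summits, 54.0% (50.2 to 57.7%), and the 4 middle parts held 203, 29.8% (26.5 to 33.3%). The median distance from the summit to the nearer edge was 157.5 bp, and the middle 50% of sites ran from 65 to 361.75 bp. At 138 sites the edge was less than 50 bp away, and at 114 sites both edges were at least 500 bp away. The nearest H3K27ac summit of either library lay at a median of 148.5 bp from the SOX10 summit, and at 144 sites (21.1%) it lay within 50 bp.

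The SOX10 library that had not given the summit placed its own summit inside an H3K27ac region at 547 of 682 interior sites, 80.2% (77.0 to 83.0%). Over all SOX10 sites the share was 16.6%, at flanked sites it was 11.9% (103 of 865), and at sites with acetylation on one side 4.81% (41 of 853). Both summits of a site come from joined peaks, and the classes other than interior had the first summit outside. These contrasts therefore follow in part from the rule, and the share over all sites includes the interior sites. Of the 547 second summits, 511 were in the same region as the first. The 135 interior sites whose second summit lay outside had it at a median of 71 bp from the nearest region, and at 83 of them that summit was flanked on both sides. Replicate 2 gave the summit at 608 interior sites (89.1%), as it did at 87.4% of all sites. With H3K27ac replicate 2 left out, the share of second summits inside was 72.4%, and with replicate 1 left out it was 77.7%.

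Shares by depth in the region follow in part from its shape: a summit near an edge needs only a small shift to fall outside, and the outer edge of a joined region is often covered by 1 H3K27ac library alone. At the 138 sites less than 50 bp from an edge the second SOX10 summit was also inside at 59.4% (51.1 to 67.3%), and peaks of both H3K27ac libraries covered the summit at 15.9%. From 50 to under 150 bp these shares were 79.1% and 46.0% of 187 sites, and from 150 to under 400 bp they were 85.0% and 76.7% of 206 sites. At 400 bp or more from both edges they were 94.0% (89.1 to 96.8%) and 72.2% of 151 sites. In all, 314 sites (46.0%) had both SOX10 summits inside and peaks of both H3K27ac libraries over the site's summit.

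**Figure D2:**
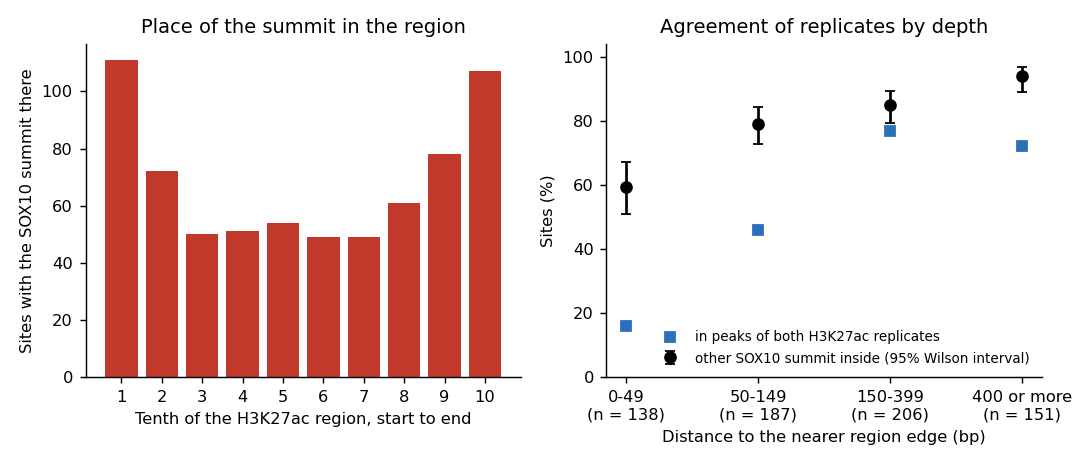
Left, number of interior sites (vertical axis) whose SOX10 summit fell in each of 10 equal parts of its H3K27ac region (horizontal axis, from the lower to the higher coordinate); the first and last parts hold 111 and 107. Right, percent of interior sites (vertical axis) by distance from the summit to the nearer region edge in bp (horizontal axis), as circles with 95% Wilson intervals for the other SOX10 summit also lying inside, from 59.4% to 94.0%, and as squares for coverage of the summit by peaks of both H3K27ac libraries, from 15.9% to a highest value of 76.7% in the group from 150 to under 400 bp.

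SOX10 summits of interior sites were less sharply placed than those of other sites. The summits of both SOX10 libraries lay a median of 65.5 bp apart at interior sites, 44 bp at flanked sites and 48 bp at sites with acetylation on one side or none. They were within 100 bp of each other at 429 interior sites, 62.9% (59.2 to 66.4%), where the share was 74.2% over all SOX10 sites and 78.3% (75.4 to 80.9%) at flanked sites. They were more than 500 bp apart at 77 interior sites, 11.3% (9.13 to 13.9%), against 3.92% of all sites and 2.54% (1.69 to 3.82%) of flanked sites. More than 2 SOX10 peaks had been joined at 21 interior sites, 3.08% (2.02 to 4.66%), against 1.47% of all sites and 2.20% (1.41 to 3.41%) of flanked sites. The intervals of interior and flanked sites overlap here. These shares and those that follow are set side by side with their counting intervals and no test, because sites of 1 library are not replicates and an exact sign-flip permutation test over the within-library differences of 2 libraries cannot go below p = 0.5 (two-sided).

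The interior sites were weak in fold enrichment, which is the authors' ratio of SOX10 tags at a summit to the input background there. The median fold was 8.175 in replicate 1 and 8.19 in replicate 2 (middle 50% of sites from 6.54 to 10.7 and from 6.31 to 11.2). At flanked sites it was 11.35 and 11.97, at sites with acetylation on one side 10.8 and 10.9, and at sites with none within 1 kb 11.9 and 12.0. On the log2 scale the interior median was below the flanked one by 0.47 in replicate 1 and 0.55 in replicate 2, a difference of -0.51 ± 0.05 (SD, n = 2 libraries). It was -0.41 ± 0.01 against sites with one side acetylated and -0.54 ± 0.01 against sites with none (SD, n = 2). Both libraries showed the same direction against each class, and they share the input by which fold is divided.

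Low folds were common among interior sites and high folds rare. A fold under 8 in both libraries was found at 240 interior sites, 35.2% (31.7 to 38.8%), against 12.4% of all SOX10 sites and 10.3% (8.44 to 12.5%) of flanked sites. A fold over 20 in both was found at 7, 1.03% (0.498 to 2.10%), against 5.87% of all sites and 9.94% (8.12 to 12.1%) of flanked sites. When all SOX10 sites were ranked by mean fold, interior sites made up 50.7% of the lowest decile (211 of 416) and 3.86% of the highest (16 of 415), with no decile above the one below it. Flanked sites made up 15.9% of the lowest decile and 31.3% of the highest. No interior site was among the 10 highest folds of the list, which included 6 flanked sites, and the strongest interior site ranked 14.

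**Figure D3:**
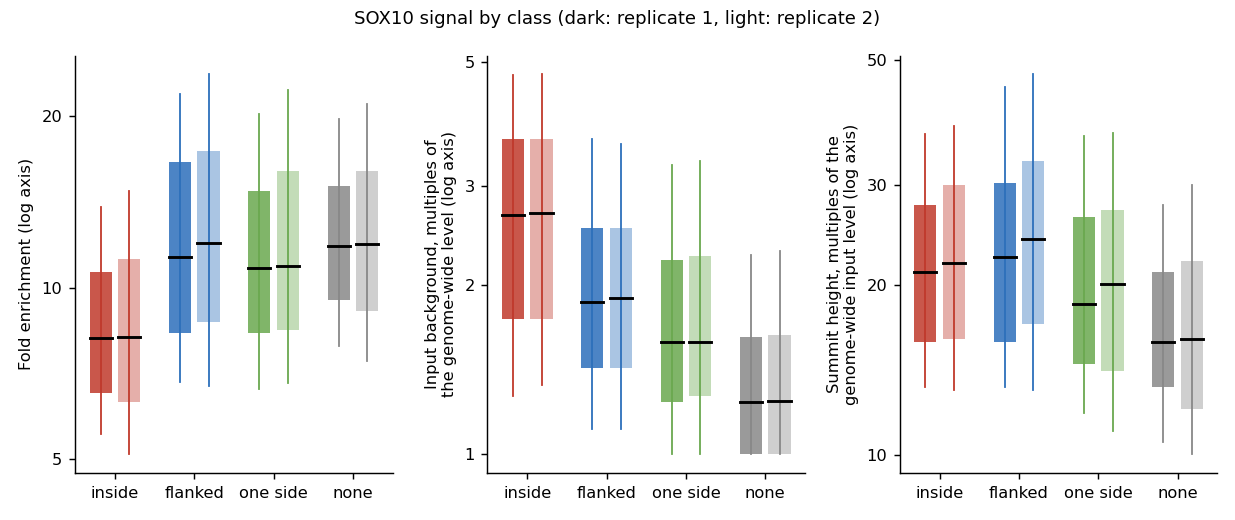
SOX10 fold enrichment (left), input background recovered at the site (middle) and summit height, fold multiplied by background (right), all on log axes, for interior sites, flanked sites, sites with H3K27ac on one side and sites with none within 1 kb. Boxes span the middle 50% of sites, black lines are medians and thin lines run from percentile 10 to percentile 90, dark for replicate 1 and light for replicate 2; interior sites have the lowest median folds, 8.175 and 8.19, and the highest median backgrounds, 2.67 and 2.69.

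The input itself was high at interior sites. The input background at each SOX10 peak was recovered from the authors' tags and p and expressed in multiples of the genome-wide level. It is the caller's local level, with windows of 1000 to 10000 bp, and not the input under the peak alone. Its percentile 10 over all SOX10 sites was 1.00 in both libraries. At interior sites the background had a median of 2.67 in replicate 1 and 2.69 in replicate 2. At flanked sites it was 1.87 and 1.90, at sites with one side acetylated 1.58 in both and at sites with none 1.24 in both. Both libraries were called against the same input, so their agreement here is not independent. The p column of replicate 1, on which its background and height rest, has a damaged title and was identified by its place in the list. The interior median was 1.42 ± 0.01 times the flanked one (SD, n = 2). A background of at least 2 in both libraries was found at 455 interior sites, 66.7% (63.1 to 70.1%), against 31.3% of all SOX10 sites and 39.9% (36.7 to 43.2%) of flanked sites. A background within 5% of the genome-wide level in both was found at 14 interior sites, 2.05% (1.23 to 3.42%), against 15.5% of all sites. Just 1 interior site had a background over 10 in either library, against 0.216% of all sites.

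Tag numbers did not share the low rank of the fold. Interior peaks held a median of 33 and 50 tags in replicates 1 and 2, flanked peaks 31 and 48, and peaks with no acetylation within 1 kb 19 and 28. Summit height, the fold multiplied by the recovered background, had an interior median of 21.1 and 21.8 times the genome-wide input level. It was 22.4 and 24.1 at flanked sites and 15.8 and 16.0 at sites with none, so the interior value was below the flanked one by a log2 difference of -0.11 ± 0.04 and above that of sites with none by 0.43 ± 0.02 (SD, n = 2). Within classes of mean input background, the excess over sites with none remained only under 1.5 and in replicate 2. Interior medians there were 14.50 and 15.03, against 14.50 and 14.04 with none. From 1.5 to 3 they were 18.45 and 19.05 against 19.76 and 20.05. At 3 or more they were 27.66 and 28.06 against 29.66 and 30.08. Flanked medians were higher than interior ones in each class: 18.45 and 19.06, 21.09 and 23.07, and 31.63 and 34.10. Interior peaks were 1116.5 and 1267 bp wide at the median, 1.05 and 1.07 times the flanked peaks. That ratio was 0.941 and 0.974 among sites with a background under 1.5 and from 1.5 to 3, and 1.07 among those at 3 or more, so its direction depended on the background.

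The difference in fold from flanked sites was smaller within classes of similar input background but kept its direction in each. Among sites with a mean background under 1.5 the median fold in replicates 1 and 2 was 12.0 and 11.4 at 107 interior sites and 14.8 and 16.3 at 259 flanked sites. From 1.5 to 3 it was 8.46 and 8.63 at 298 interior sites and 10.6 and 11.5 at 460 flanked sites. At 3 or more it was 6.78 and 6.69 at 277 interior sites and 8.32 and 8.59 at 146 flanked sites. The mean log2 differences of both libraries from flanked sites were -0.41, -0.37 and -0.33, against -0.51 over all sites. Within each background class the other sites lay closer to the interior ones than flanked sites did. With one side acetylated the medians were 12.95 and 13.45 under 1.5, 10.02 and 10.43 from 1.5 to 3, and 7.07 and 7.33 at 3 or more. With no acetylation within 1 kb they were 13.18 and 13.03, 10.24 and 10.36, and 7.26 and 7.235. Interior sites made up 5.57% of SOX10 sites in the lowest background class, 18.6% in the middle and 43.6% in the highest. Fold also went with depth in the region: the median was 9.4 and 9.16 at sites less than 50 bp from an edge, and 7.73 and 7.60 at sites 400 bp or more from both, where the background was 3.01 in both libraries against 2.30 and 2.38. The part of the background in these differences was not tested further.

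**Figure D4:**
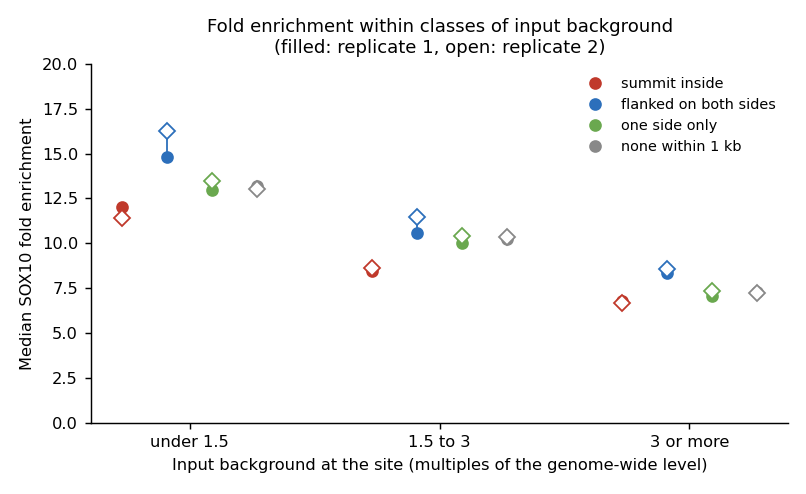
Median SOX10 fold enrichment (vertical axis, from 0) for sites grouped by input background (horizontal axis, multiples of the genome-wide level) and by class of site (colours), with filled circles for replicate 1 and open diamonds for replicate 2. In each of the 3 background groups the interior sites have the lowest medians, for example 6.78 and 6.69 against 8.32 and 8.59 at flanked sites in the highest group.

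The strongest interior sites stood mostly at region edges. The highest mean fold was at chromosome 14, 120672763 to 120674379, with 41.15 in replicate 1 and 41.04 in replicate 2 and summits 6 bp apart. Its H3K27ac region was only 308 bp long and its summit was 14 bp from the region's edge. The next, on chromosome 19 at 44387363 to 44388284, had folds of 16.5 and 44.6, so its rank rests on replicate 2. It lay in the shortest of all regions that held an interior summit, 223 bp. The third, on chromosome 18 at 36014787 to 36015999, had 23.5 and 31.6 with 61 and 116 tags, and its summit was covered by H3K27ac replicate 1 alone.

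The rest of the 10 highest ran from a mean fold of 26.8 down to 21.8. Chromosome 9 at 57797739 to 57799156 had folds of 31.1 and 22.6 over an input background of 3.64 in both libraries, and with 108 and 103 tags it had the most in replicate 1 of these 10. Chromosome 10 at 12825451 to 12828950 joined peaks whose chosen summits lay 1856 bp apart, and it was the only one of the 10 whose second summit fell outside H3K27ac. Chromosome 3 at 86955934 to 86957170, with folds of 21.0 and 25.3, was the only one of the 10 in a region over 2 kb, with its summit 772 bp from the edge. Of the 10, 7 had the summit less than 100 bp from an edge, as did 237 of all interior sites (34.8%). Of the same 10, 5 were covered by peaks of both H3K27ac libraries, against 55.0% of all interior sites. A background of at least 2 in both SOX10 libraries was found at 2 of them, against 66.7% of all interior sites. Fold is divided by the background, so ranking by fold favours sites with a low one.

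**Figure D5:**
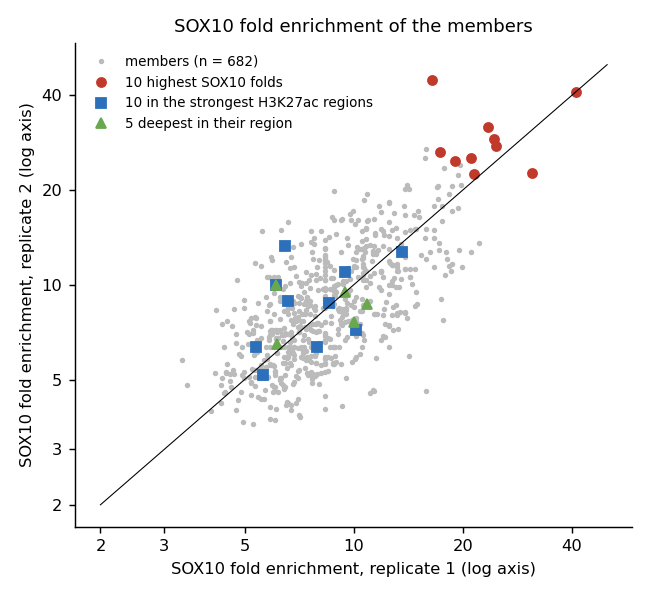
SOX10 fold enrichment in replicate 1 (horizontal) and replicate 2 (vertical), both on log axes, for the 682 interior sites, with the 10 highest mean folds as circles, the 10 sites in the H3K27ac regions of highest fold as squares and the 5 sites deepest in their region as triangles. The line marks equal folds; the sites in the strongest acetylated regions have mean folds from 5.39 to 13.1, below all of the 10 highest, which run from 21.8 to 41.1.

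Over all interior sites the log2 folds of both SOX10 libraries correlated with r = 0.668 across 682 sites, which are not independent replicates, and replicate 1 had the higher fold at 335 of them. At the 865 flanked sites r was 0.753.

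The acetylated regions around the interior summits were wider and higher in fold than the other H3K27ac regions. The 682 summits lay in 680 H3K27ac regions of the 36655, and a wider region has more room for a summit. Their median width was 1053 bp, against 542 bp for the other 35975, and the median H3K27ac fold was 9.82 in replicate 1 and 9.80 in replicate 2, against 8.70 and 8.57. A region's fold is its highest peak value in a library, and the regions with an interior summit had joined more peaks. Percentile 90 of peaks per region was 3 in each library, against 2 at the others. Fold was not compared apart from width. An interior summit was found in 0.451% of regions under 500 bp, 1.71% of those from 500 to under 1000 bp, 4.80% of those from 1000 to under 2000 bp and 10.6% of those of 2000 bp or more. In the widest class 110 interior sites had the second SOX10 summit inside at 93.6%, against 65.3% of the 72 sites in regions under 500 bp. Median SOX10 folds were 7.92 and 8.04 in the widest class and 9.19 and 9.62 in the narrowest. The H3K27ac libraries had an input of their own, whose recovered background was a median of 1.35 and 1.27 at these regions and 1.27 and 1.21 at the other H3K27ac regions.

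The sites in the most strongly acetylated regions were ordinary in SOX10 fold. The highest H3K27ac fold was 21.1 ± 0.247 (SD, n = 2) in a region on chromosome 7 at 35105182 to 35106254, where the SOX10 fold was 13.6 in replicate 1 and 12.7 in replicate 2. It was followed by a region on chromosome 8 at 13674494 to 13676376 with 19.4 ± 4.02 (SD, n = 2) and SOX10 folds of 8.57 and 8.77. The third, on chromosome 4 at 88927054 to 88928320, had an H3K27ac fold of 18.2 ± 3.98 (SD, n = 2) and SOX10 folds of 5.38 and 6.33. Over these 10 sites the mean SOX10 fold ran from 5.39 to 13.1. An input background of at least 2 in both SOX10 libraries was found at 8 of the 10, against 66.7% of all interior sites.

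Just 2 H3K27ac regions held more than 1 interior summit. A region of 4151 bp on chromosome 8 at 35870347 to 35874497 held summits 141 and 38 bp from its edges. The SOX10 folds there were 6.57 and 8.86 at the left site and 6.44 and 13.2 at the right one, in replicates 1 and 2. A region of 4035 bp on chromosome 6 at 82946953 to 82950987 held summits 882 and 719 bp from the edges, with folds of 5.72 and 9.12 and of 12.5 and 9.97.

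The deepest summit lay 4992 bp from the nearer edge of an 11158 bp region on chromosome 6 at 88915808 to 88926965. Its SOX10 folds were 9.43 and 9.5 with 40 and 67 tags, the summits were 80 bp apart, and the input background was 4.75 in both libraries. The other four of the 5 deepest lay 1935 to 2569 bp from an edge, 2 of them also on chromosome 6. Mean folds over the 5 ran from 6.31 to 9.78. All 5 had the second summit inside, against 80.2% of all interior sites, and all 5 had a background of at least 2 in both SOX10 libraries, against 66.7%. At the other end, 5 sites with the summit on the outermost base of a region had mean folds from 8.10 to 16.9, and 2 of them had the second summit inside. The 5 sites whose summit was 1 bp outside a region had mean folds of 8.76, 6.26, 7.09, 5.89 and 18.4, and at 2 of them the other library's summit was inside. Sites just within and just beyond the limit thus overlapped in fold.

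H3K27me3 was rare at the interior sites. A consensus region of that mark overlapped 2 of 682, 0.293% (0.0805 to 1.06%), against 1.32% of all SOX10 sites and 0.116% (0.0204 to 0.652%) of flanked sites. Peaks of H3K27me3 replicate 1 alone overlapped 2 and peaks of replicate 2 alone 3, against 1.44% and 1.68% of all sites. The 2 sites lay on chromosome 6 at 101332055 to 101333194, with SOX10 folds of 9.25 and 16.2, and on chromosome 3 at 30691406 to 30693144, with 6.03 and 5.50. Within 10 kb of an H3K27me3 region lay 102 interior sites, 15.0% (12.5 to 17.8%), against 19.4% of all sites and 10.8% (8.86 to 13.0%) of flanked sites. With peaks of 1 SOX10 library as sites, 8 of 1733 summits inside H3K27ac overlapped H3K27me3 in replicate 2 and 0 of 1022 in replicate 1, which allows a share of up to 0.294%. The share over all peaks of each library is not given here, so these counts are descriptions only.

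The share of interior sites with another SOX10 site nearby lay between those of flanked sites and of sites with no H3K27ac close by. Another SOX10 consensus site lay within 10 kb of the summit at 117, 17.2% (14.5 to 20.2%), against 14.5% of all sites, 22.5% (19.9 to 25.4%) of flanked sites and 9.66% (8.37 to 11.1%) of sites with no H3K27ac within 1 kb. Within 50 kb the count was 317, 46.5% (42.8 to 50.2%), against 40.9% of all sites and 56.2% (52.9 to 59.5%) of flanked sites.

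Chromosome 6 held 76 of the 682 interior sites, 11.1% (9.0 to 13.7%), against 6.64% of all SOX10 sites and 6.71% (5.22 to 8.57%) of flanked sites. Of its SOX10 sites 27.5% (22.6 to 33.1%) had the summit inside H3K27ac, where the other 18 numbered chromosomes ranged from 11.1% on chromosome 13 to 21.8% on chromosome 11, with a median of 16.2%. H3K27ac regions there were wider: 205 of 2602 (7.88%) spanned 2000 bp or more, against 2.40% elsewhere. The 76 interior sites had regions of 1780 bp at the median, against 998.5 bp at the other 606, a SOX10 background of 3.01 in both libraries against 2.53 and 2.68, and SOX10 folds of 7.58 and 7.61 against 8.32 and 8.24. Without chromosome 6 and sequences with no place on a chromosome, 15.6% of sites were interior. Chromosome X, where 1.03% of all SOX10 sites lay, held none. Of its 43 SOX10 sites 0 were interior, which allows a share of up to 6.98%, against 16.4% of all SOX10 sites. It also held only 29 of the 36655 H3K27ac regions.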

How the data were processed

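The data were 1 peak list from each of 6 ChIP-seq libraries. Antibody and replicate number in the sample titles gave the groups. The interior sites, comparisons and lists were chosen with earlier results of these data known. Each library had its peaks called by the authors against input with MACS 1.4.2 at a p of 1e-05, per the file headers, after duplicate tags were removed. The build is mm9, per the submitters' processing notes. For the read aligner, nothing is given in the sources used here. The local background was disabled for H3K27me3, per the file headers. The deposited tag counts are whole numbers of tags in a peak. Significance is deposited as 10 times the -log10 of p, on which scale the cutoff is 50. Fold enrichment is a ratio that the authors' caller took at the summit. The authors' FDR is in percent and was used in an alternative only.

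Consensus regions needed 1 bp shared and both libraries. A site's value in a library is its highest peak value there. The input background is the Poisson mean at which a peak's tags give its p, divided by peak width and by the genome-wide level of the scaled library. Without a local background it should be 1, and 96.8% and 95.2% of H3K27me3 peaks came within 1% of that. Simulation of 500 peaks gave a largest error of 0.0111%, and on 1000 simulated sites each class was recovered in full. The simulated p came from the formula that was inverted, and both simulated H3K27ac libraries had the same bounds. The simulations therefore check the code and not its behaviour on real peaks. Medians are given per library, with the SD over 2 libraries, and shares with 95% Wilson intervals. The limit given with a count of 0 is not a Wilson limit but 3 divided by the number of sites. Named sites are the 10 highest in SOX10 fold and in H3K27ac fold, the 5 deepest, the 5 nearest the limit on either side, those with H3K27me3, and regions with more than 1 summit. Gene and motif steps of the plan were not run, since the gene and promoter tables at hand are of another build. Python 3.11.15, numpy 2.4.6 and scipy 1.17.1 were used.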

Additional observations from a re-analysis of the deposited data

How the results depend on the processing

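No paired analysis was possible because no test compares libraries of different antibodies, whose replicate numbers are shared; interior and flanked sites were compared within each SOX10 library. The lower fold at interior sites kept its direction in the 17 alternatives computed for it, and the higher background in the 14 computed for it. The share of SOX10 sites that were interior was 9.02% with bases in both H3K27ac libraries only, 34.8% with regions under 1 kb apart joined, 15.1% with at least 50% of the shorter peak shared, 8.96% with the authors' p score of at least 100 and 10.7% with the summit at least 100 bp from an edge. In the same order and leaving out the 50% setting, the share of second summits inside was 70.7%, 95.9%, 83.9% and 86.7%. The log2 fold difference from flanked sites was -0.29 with regions joined and -0.60 with the margin of 100 bp, and the width ratio with that margin 1.08. The ratio of backgrounds was 1.4 with bases in both libraries, 1.39 with regions joined, 1.47 with the stricter p, 1.38 with an FDR of at most 5%, 1.47 without chromosome 6 and 1.43 with the margin. No interior site overlapped H3K27me3 with the stricter p (0 of 112, which allows up to 2.68%), and the share over all sites of that setting is not given here. Leaving out 1 library at a time gave shares of 13.2 to 18.0%, second summits inside at 72.4 to 77.7% (H3K27ac libraries only), fold differences of -0.54 to -0.42, width ratios of 1.02 to 1.08, background ratios of 1.33 to 1.48 and H3K27me3 overlaps of 0 to 0.462%. Alternatives chosen after seeing the data gave fold differences of -0.41, -0.37 and -0.33 and width ratios of 0.941, 0.974 and 1.07 by input background class, the first 2 ratios turned in direction, and a width ratio of 1.03 with summits within 100 bp. The cause of these changes was not tested, beyond the smaller number of sites that stricter settings leave. SOX10 depth limits the precision: a median interior peak held 33 and 50 tags.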

Other observations

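SOX10 peaks found in 1 library only also had summits inside H3K27ac regions. Of 2218 peaks that replicate 2 lacked, 315 had their summit inside, 14.2% (95% Wilson interval 12.8 to 15.7%), and of 5424 peaks that replicate 1 lacked, 1036 did, 19.1% (18.1 to 20.2%). These inside peaks had a median fold of 7.05 and 6.64 and a median input background of 2.69 in both libraries. All peaks found in 1 library only had a median fold of 9.23 and 8.14 and a background of 1.27 and 1.44. Lower fold and higher input background at summits inside H3K27ac were thus also measured in peaks that did not enter the consensus. Which of these places SOX10 binds was not tested.

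Ranked by summit height in place of fold, interior sites made up 8.17% of the lowest decile of all SOX10 sites and 20.7% of the highest, and between 19.2% and 21.6% of each decile from the sixth up. Flanked sites made up 7.21% of the lowest decile and 40.2% of the highest. The share of interior sites therefore fell with fold and rose, then levelled, with height.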
